A study of Mus musculus with 4 samples.

Results

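The genes described here are 10 regulators of the step from G1 into S phase, taken by symbol from the 27998 genes of the count tables. They are the D-type cyclins Ccnd2 and Ccnd3, their kinases Cdk4 and Cdk6, the kinase inhibitors Cdkn1a, Cdkn1b, Cdkn2c and Cdkn2d, the retinoblastoma gene Rb1, and the transcription factor gene Myc. They were measured by 3′ single-cell RNA-seq in spleen CD8+ T cells that bound the H-2Db-GP33 tetramer, sorted on day 8 after infection with LCMV Armstrong, a virus strain that mice clear acutely. The cells came from 2 mixed bone marrow chimeras of C57BL/6 background, Rag1-/- mice that were irradiated and given wild-type (WT, CD45.1) and Bcl3-/- (KO, CD45.2) marrow together. Rag1-/- hosts make no T or B cells of their own, so T cells of both genotypes developed and responded in the same animal. By the numbers in their titles, the libraries WT1 and KO1 were taken as chimera 1 and WT2 and KO2 as chimera 2. Each genotype therefore had n = 2 libraries. The sources used here give no ages or sexes. Since the mutation came with the marrow, it was carried through T cell development and not induced in mature cells.

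D-type cyclins are made in response to growth signals and activate the kinases CDK4 and CDK6, which phosphorylate the RB protein. Phosphorylated RB releases E2F factors, and these switch on genes for DNA replication. The INK4 inhibitors, here Cdkn2c (p18) and Cdkn2d (p19), bind CDK4 and CDK6, whereas the CIP/KIP inhibitors Cdkn1a (p21) and Cdkn1b (p27) act on cyclin-CDK complexes more widely. MYC drives growth and ribosome building in activated T cells, which divide very quickly after meeting virus, and effector T cells leave the cycle as the infection is cleared. Transcript level is one layer of this control, since several of these proteins are set mainly by their turnover or phosphorylation.

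Positions are from the GENCODE annotation of GRCm38, and each of the 10 is a protein-coding gene. Ccnd2 lies at chr6:127125162-127152193 (minus strand) and Ccnd3 at chr17:47505051-47599691 (plus strand). Cdk4 lies at chr10:127063534-127067920 and Cdk6 at chr5:3341485-3531008, both on the plus strand. Cdkn1a lies at chr17:29090976-29100727 and Cdkn1b at chr6:134920401-134925513, both on the plus strand. Cdkn2c lies at chr4:109660876-109667189 and Cdkn2d at chr9:21288410-21291407, both on the minus strand. Rb1 lies at chr14:73183673-73325822 (minus strand) and Myc at chr15:61985391-61990374 (plus strand). No gene of the count tables overlapped a member on the same strand, while Ccnd2, Ccnd3, Cdk4, Cdk6 and Rb1 overlap genes on the other strand, for example Bysl at Ccnd3 and Tspan31 at Cdk4.

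The promoter of Cdk4 is shown because 4 copies of the E-box CACGTG, a sequence that MYC with its partner MAX can bind, lie in it. Of 32851 RefSeq promoter windows of 300 bases in GRCm38.p6 (250 before and 50 after a start site), 7.15% held at least 1 CACGTG, which reads the same on both strands, and 8 windows, or 0.0244%, held 4 or more. The 250 bases before the start site of Cdk4 (chr10:127063285-127063534, plus strand) are given 5′ to 3′ with the E-boxes in capitals, followed for comparison by those of its sister kinase Cdk6 (chr5:3343643-3343892, plus strand), which hold 1.
Cdk4: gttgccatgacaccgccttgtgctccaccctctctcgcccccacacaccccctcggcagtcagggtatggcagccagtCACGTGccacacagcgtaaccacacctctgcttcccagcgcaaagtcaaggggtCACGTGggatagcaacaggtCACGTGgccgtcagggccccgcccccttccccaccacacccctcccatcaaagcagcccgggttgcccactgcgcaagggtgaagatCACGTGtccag
Cdk6: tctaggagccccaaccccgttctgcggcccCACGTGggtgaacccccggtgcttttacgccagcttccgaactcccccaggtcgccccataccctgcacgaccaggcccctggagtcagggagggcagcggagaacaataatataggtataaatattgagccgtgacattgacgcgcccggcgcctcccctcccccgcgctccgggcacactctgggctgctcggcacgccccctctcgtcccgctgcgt
A match is a description of the sequence and says nothing of binding in these cells. RefSeq windows were matched for 7 of the 10 genes, 10 windows in all, of which 3 held the E-box. The E2F letters TTTCGCGC, TTTGGCGC and GGCGGGAA were searched on both strands and were in none of the 10 windows, against 0.323%, 0.514% and 2.19% of all windows.

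A barcode counted as a cell when it had 500 or more genes and no more than 10% of its UMIs (a UMI marks 1 captured transcript) from mitochondrial genes. The WT libraries then held 4941 (WT1) and 8092 (WT2) cells and the KO libraries 5366 (KO1) and 6494 (KO2), from totals of 20358780 to 22922219 UMIs. Clusters were called in each library without the 10 genes and without the 98 genes of the pathway lists, so that neither set shaped the cell states directly. Cycling clusters, named from S phase and mitosis genes, held 788 and 1043 cells in WT1 and WT2 and 494 and 740 in KO1 and KO2. Non-cycling T cell clusters held 3838, 6673, 4475 and 5320 cells in the same order. Here "non-cycling" means that a cluster lacked the cycle signature. The states are taken as clusters, and 61 to 205 of the cells per library in non-cycling clusters carried 5 or more cycle-gene UMIs among 1000. Conversely, 92 of 788 cells in cycling clusters of WT1, 70 of 1043 of WT2, 57 of 494 of KO1 and 108 of 740 of KO2 carried at most 1.

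The sorted identity was checked on its markers. Cd8b1 stood at 1561 to 1893 UMIs per 1000000 (CPM) in cycling and at 1908 to 2254 CPM in non-cycling T cells. Cd4 stood at 1.98 to 3.42 and 1.73 to 3.15 CPM. Clusters of B cell-like and myeloid-like cells were present in each library and were left out of the T cell sums. The sums over all cells kept them. Globin genes were uneven in the cycling clusters: the 6 erythroid markers summed to 199 and 121 CPM in WT1 and WT2 and to 0.953 and 984 CPM in KO1 and KO2, against 7.19 to 33.1 CPM in non-cycling T cells. In these clusters 2 cells of WT1, 1 of WT2 and 1 of KO2 held 3 or more globin UMIs. Removing cells with 3 or more UMIs of B cell, macrophage and globin genes left the number of members called unchanged in each of the 7 comparisons. The 13 myeloid markers summed to 794 to 1047 CPM in cycling and 791 to 1065 CPM in non-cycling cells, and the 10 B cell markers to 49.4 to 61.1 and 36.5 to 50.6 CPM. A stricter filter, which removed cells with any UMI of defining markers of B, plasma, myeloid or erythroid cells, left 12 to 264 cycling cells per library. Under it the members called fell from 8 to 4 between cycling and non-cycling cells and from 8 to 2, with 4 tested, between the cycle phases. The share of all genes called fell under it too, from 49% to 17.2% and from 26.4% to 7.55%. Barcodes shared between pairs of libraries numbered 37 to 63, against 36 to 71.3 if barcodes were drawn independently.

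The first comparison asked how the G1 regulators differ between T cells in division and those out of it. In cycling T cells the inhibitors Cdkn2c and Cdkn1a, the kinase gene Cdk4, Rb1 and, by a small margin, Cdkn2d rose as a share of the transcriptome, whereas Ccnd2, Cdkn1b and Ccnd3 fell. Cdk6 and Myc did not pass the test. Thus 8 of the 10 genes were called by edgeR's quasi-likelihood test on UMIs summed per library and state, with library as a term, against 49% of the 10772 genes tested. Higher calls made up 5 of the 10, against 23.6% of all genes, and lower calls 3 of the 10, against 25.5%. The 4 libraries of the states did not overlap for 6 of the 10 genes, against 29.3% of all genes.

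**Figure D1:**
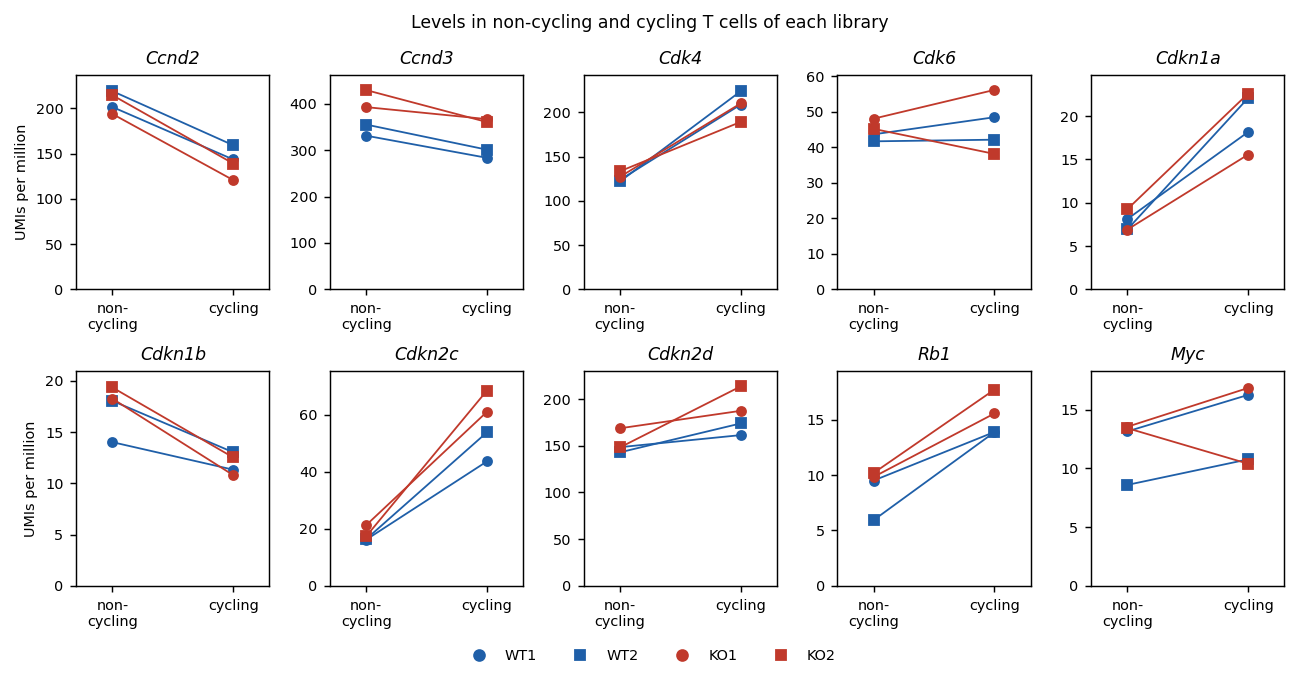
Level of each gene (CPM, linear axis from 0) in non-cycling and cycling T cells; each line joins the 2 states of 1 library, blue for WT and red for KO, circles for chimera 1 and squares for chimera 2. Cdkn2c, Cdkn1a, Cdk4 and Rb1 rise in each of the 4 libraries, Ccnd2 and Cdkn1b fall in each, and the lines of Cdk6 and Myc cross.

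Among the D cyclins, Ccnd2 stood at 201, 219, 194 and 214 CPM in non-cycling cells of WT1, WT2, KO1 and KO2, and at 143, 159, 121 and 139 CPM in cycling cells. Each cycling value lay below each non-cycling value, and the fitted log2 difference was −0.61 ± 0.05 (SE; edgeR adjusted p = 4.12e-11). Ccnd3, the other D cyclin of T cells, stood at 331, 355, 392.3 and 429 CPM in non-cycling and at 283, 301, 367 and 360.2 CPM in cycling cells of WT1, WT2, KO1 and KO2. Ccnd3 was lower in the cycling cells of each library, but the states overlapped across libraries because both KO libraries were high (log2 difference −0.26 ± 0.04, edgeR adjusted p = 4.86e-06). Without library as a term this call was lost (edgeR adjusted p = 0.0937).

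These are shares of all UMIs, and a cycling cell held more UMIs. The median was 5275.5 UMIs per cycling cell against 3393.5 per non-cycling cell in WT1, and 2792 against 1930 in WT2. The medians were 5748 against 3523 in KO1 and 3805 against 2868.5 in KO2. Counted per cell, Ccnd2 in cycling cells was between 0.943 and 1.18 times its non-cycling number in the 4 libraries, and Ccnd3 between 1.22 and 1.59 times. The D cyclins therefore fell as a share of UMIs while their number per cell held level or rose, whereas Cdk4 was higher both ways.

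Of the kinases, Cdk4 rose from 124 to 209 CPM in WT1, from 122 to 224 in WT2, from 127 to 210 in KO1 and from 133 to 189 in KO2. The states did not overlap, and the difference was 0.66 ± 0.05 on the log2 scale (edgeR adjusted p = 3.17e-11). Per cell, the number of Cdk4 UMIs in cycling cells was 2.06 to 2.97 times the non-cycling number. Cdk6, which pairs with the same cyclins, did not follow it. Its level was 43.7, 41.7, 48.1 and 45.2 CPM in non-cycling and 48.5, 42.2, 56.2 and 38.2 CPM in cycling cells of WT1, WT2, KO1 and KO2 (log2 difference 0.00 ± 0.07, edgeR adjusted p = 0.965).

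The INK4 inhibitor Cdkn2c showed the steepest rise among the 10 genes. It stood at 16.2, 16.4, 21.3 and 17.4 CPM in non-cycling cells of WT1, WT2, KO1 and KO2, and at 43.6, 53.8, 61.0 and 68.4 CPM in cycling cells. The lowest cycling value, in WT1, was above the highest non-cycling value, in KO1, and the log2 difference was 1.61 ± 0.08 (edgeR adjusted p = 3.40e-14). Cdkn2d, its relative, moved little as a share of UMIs. Its level went from 148.5, 143, 169 and 148 CPM to 161, 174, 187 and 213.5 CPM (0.21 ± 0.05, edgeR adjusted p = 0.00181). Leaving out 1 library gave log2 differences of 0.129 to 0.287. Counted per cell, Cdkn2d was 1.80 to 2.10 times its non-cycling number. Its CPM was higher in the cycling cells of each library with overlap between the states. Without library as a term the call was lost (edgeR adjusted p = 0.0885).

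The CIP/KIP inhibitors went opposite ways as a share of UMIs. Cdkn1a rose from 8.13, 6.94, 6.92 and 9.27 CPM in non-cycling to 18.2, 22.1, 15.6 and 22.6 CPM in cycling cells of WT1, WT2, KO1 and KO2. No values overlapped, and the log2 difference was 1.26 ± 0.12 (edgeR adjusted p = 2.77e-09). Cdkn1b, the inhibitor classically linked to quiescence, fell from 14.0, 18.0, 18.2 and 19.3 CPM to 11.3, 13.0, 10.8 and 12.5 CPM, again with no overlap (−0.59 ± 0.11, edgeR adjusted p = 0.000121). Counted per cell, Cdkn1b in cycling cells was between 0.942 and 1.34 times its non-cycling number in the 4 libraries, and Cdkn1a between 3.55 and 5.14 times. The number of Cdkn1b UMIs per cell thus held level or rose. Cdkn1b rested on 174 UMIs in cycling cells. When each cell was thinned to 1000 UMIs, Cdkn1b no longer passed (log2 difference −0.34, edgeR adjusted p = 0.28).

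Rb1, whose product is the target of the cyclin D kinases, rose from 9.51, 5.94, 9.84 and 10.2 CPM to 13.9, 13.9, 15.6 and 17.7 CPM (0.72 ± 0.13, edgeR adjusted p = 3.99e-05). The states did not overlap, and the call was also lost at 1000 UMIs per cell (0.57, edgeR adjusted p = 0.116). Myc stood at 13.1, 8.59, 13.5 and 13.4 CPM in non-cycling and 16.2, 10.8, 16.8 and 10.4 CPM in cycling cells of WT1, WT2, KO1 and KO2. It was higher in cycling cells of 3 libraries and lower in KO2, with a log2 difference of 0.11 ± 0.13 (edgeR adjusted p = 0.505).

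**Figure D2:**
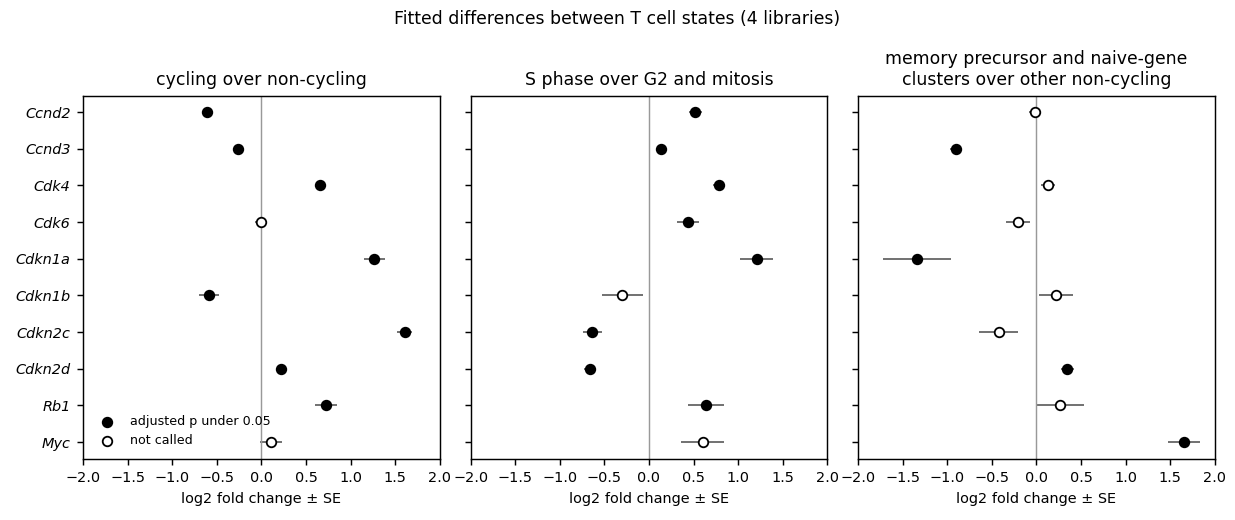
Fitted log2 differences (x axis, ± SE) of the 10 genes for cycling over non-cycling T cells, S phase over G2 and mitosis cells, and memory precursor and naive-gene clusters over other non-cycling T cells, each from the 4 libraries. Filled points passed an adjusted p of 0.05; Cdkn2c is farthest right for cycling cells (1.61), Cdkn1a for S phase (1.21) and Myc for the memory clusters (1.66).

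The same genes were followed along the number of cycle-gene UMIs found among 1000 UMIs of a T cell, whatever its cluster. Up to 4 such UMIs the means of Cdk4 and Cdkn2c were level: Cdk4 stood at 126 ± 10.5 CPM with 0, 124.5 ± 5.78 with 1 and 131 ± 4.36 with 2 to 4 (SD, n = 4 libraries), and Cdkn2c at 16.8 ± 2.80, 18.1 ± 3.77 and 17.3 ± 0.999 CPM. Cdk4 was already at 199 ± 18.6 CPM with 5 to 9 and reached 260 ± 16.1 CPM with 10 or more. Cdkn2c was at 29.0 ± 10.8 CPM with 5 to 9 and at 123 ± 27.1 CPM with 10 or more. Cdkn2d showed no rise until the last group, at 141 ± 12.2 and then 276 ± 60.8 CPM. Its last group was split by library, from 216.5 and 231 CPM in WT1 and WT2 to 332 and 326 CPM in KO1 and KO2. Cdkn2c was split there in the same way, at 102 and 96.9 CPM against 147 and 145 CPM, and so was Ccnd3, at 288 and 305 CPM against 441 and 383 CPM. Ccnd2 fell from 203 ± 14.99 CPM with 2 to 4 to 129 ± 16.1 CPM with 10 or more, and the means of Ccnd3 stood between 329.8 and 377 CPM. The last group held 1003 cells. These values are a description without a test.

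**Figure D3:**
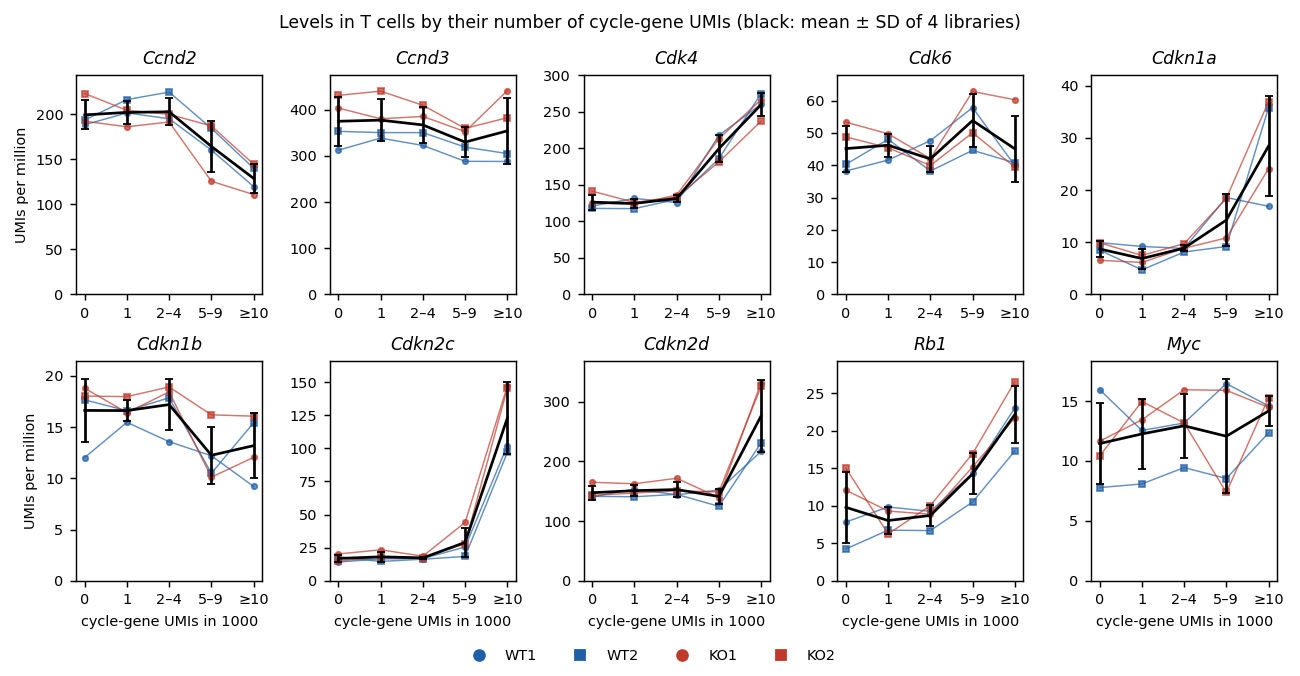
Level of each gene (CPM) in T cells grouped by cycle-gene UMIs among 1000 (x axis); thin lines are the 4 libraries and the black line is their mean ± SD. Cdk4 climbs from the group with 5 to 9, Cdkn2c and Cdkn2d mainly in the group with 10 or more, and Ccnd2 declines.

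Within the cycling clusters, cells were assigned to S phase or to G2 and mitosis by whichever marker list had more UMIs, which gave 1542 and 1408 cells. Neither list holds any of the 10 genes. Cdkn1a, Cdk4, Rb1, Ccnd2, Cdk6 and Ccnd3 were higher in S phase, and both INK4 inhibitors were higher in G2 and mitosis. Of the 10 genes, 6 were called higher and 2 lower in S phase by edgeR, against 14.3% and 12.1% of the 8472 genes tested. The libraries of the phases did not overlap for 6 genes, against 16% of all genes.

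Cdk4 stood at 253, 263, 273 and 240.2 CPM in S phase and at 141, 178, 137 and 146 CPM in G2 and mitosis in WT1, WT2, KO1 and KO2 (log2 difference 0.78 ± 0.06, edgeR adjusted p = 2.08e-15). Cdkn2d ran the other way, at 126, 132.5, 154 and 177.5 CPM in S phase and 219.9, 230.5, 231 and 249.9 CPM in G2 and mitosis (−0.67 ± 0.06, edgeR adjusted p = 7.12e-13). For both genes the 4 values of one phase were clear of the 4 values of the other. The level of Cdkn2d in G2 and mitosis, 233 ± 12.5 CPM (SD, n = 4), was the highest of 6 T cell states, next to 196 ± 29.0 CPM in the memory precursor and naive-gene clusters and 194 ± 24.0 CPM in terminal effectors, whose library ranges overlap with it and with each other.

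Cdkn2c stood at 34.8, 42.5, 50.4 and 58.7 CPM in S phase and 59.8, 72.3, 75.5 and 80.1 CPM in G2 and mitosis (−0.63 ± 0.11, edgeR adjusted p = 3.79e-06). At 1000 UMIs per cell the difference was −0.19 and was not called (edgeR adjusted p = 0.684). Both phases exceeded the 16.2 to 21.3 CPM of non-cycling cells in every library. Cdkn1a was highest in S phase, at 23.4, 27.5, 24.0 and 32.0 CPM against 10.3, 15.03, 5.75 and 15.2 CPM (1.21 ± 0.19, edgeR adjusted p = 1.11e-06). Ccnd2 was at 159, 176.5, 138 and 177.5 CPM in S phase and at 119.6, 133, 98.5 and 104 CPM in G2 and mitosis (0.52 ± 0.07, edgeR adjusted p = 9.45e-08).

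The remaining phase differences were less secure. Ccnd3 differed by 0.13 ± 0.05 on the log2 scale (edgeR adjusted p = 0.032), with overlap between the phases, and missed the threshold under 9 of the alternatives run, among them without WT1 (edgeR adjusted p = 0.0702), KO1 (edgeR adjusted p = 0.104) or KO2 (edgeR adjusted p = 0.195). Cdk6 (0.44 ± 0.12, edgeR adjusted p = 0.00366) and Rb1 (0.64 ± 0.20, edgeR adjusted p = 0.0127) were higher in S phase in each library, yet were not called by DESeq2 (adjusted p = 0.21 and 0.295), and Cdk6 was lost without WT1 (edgeR adjusted p = 0.0598) and Rb1 without KO1 (edgeR adjusted p = 0.0731). Myc differed by 0.60 ± 0.24 (edgeR adjusted p = 0.0569). Its log2 ratio of S phase to G2 and mitosis was 0.90 in WT1 and 1.81 in KO1 but −0.44 in WT2 and −0.33 in KO2, from 133 and 66 UMIs in all, and Myc was called without WT2 (0.86, edgeR adjusted p = 0.0119) or KO2 (0.82, edgeR adjusted p = 0.0246). Cdkn1b, with 87 and 83 UMIs, differed by −0.30 ± 0.23 (edgeR adjusted p = 0.378).

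The resting cells were then compared among themselves. Clusters named from genes of memory precursor and naive T cells, among them Tcf7, Ccr7, Id3 and Dapl1, held 319 and 451 cells in WT1 and WT2 and 128 and 200 in KO1 and KO2. Myc rose there and Ccnd3 fell, Cdkn2d rose slightly, and Cdkn1a fell. edgeR called 2 of the 10 genes higher and 2 lower against the other non-cycling T cells, where 9.57% and 11.3% (20.8% in all) of the 10651 genes tested were called. The libraries did not overlap for 3 genes, against 16.2% of all genes. Without scaling factors the calls over all genes went from 1019 higher and 1199 lower to 1228 and 844, and the calls of the 10 genes stayed at 2 and 2.

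Myc stood at 31.8, 32.5, 44.6 and 33.3 CPM in these clusters and at 11.4, 6.78, 12.6 and 12.6 CPM in the other non-cycling cells of WT1, WT2, KO1 and KO2. Each value in the memory precursor and naive-gene clusters was above each of the others, and the log2 difference was 1.66 ± 0.18 (edgeR adjusted p = 3.15e-12). It rested on 113 UMIs in 1098 cells. Over the 6 T cell states the mean of Myc was highest here (35.6 ± 6.07 CPM, SD, n = 4) and lowest in terminal effectors (5.62 ± 2.48 CPM), and the S phase, interferon-stimulated, no-list and G2 and mitosis means lay between, with ranges that overlapped each other and that of terminal effectors. "No list" denotes the non-cycling T cell clusters that met no list used for naming. One of them, with 865 cells in KO1, had Tcf7, Il7r and Bcl2 as its leading genes but fewer than 3 markers at 2 times the level of the other cells, and so counted among the other non-cycling cells. Without KO1, Myc (1.63, edgeR adjusted p = 8.04e-13) and Ccnd3 (−0.94, edgeR adjusted p = 8.71e-30) were still called.

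Ccnd3 stood at 176, 222.5, 252 and 220.4 CPM in the memory precursor and naive-gene clusters against 345, 365, 397 and 437 CPM (−0.90 ± 0.06, edgeR adjusted p = 2.02e-20). These were its lowest T cell values, and its highest mean was in terminal effectors (432 ± 53.2 CPM, SD, n = 4). In the B cell-like clusters Ccnd3 was at 134 to 167 CPM and Myc at 33.5 to 90.5 CPM. These are not T cell clusters, but they held Cd8b1 at 480 to 685 CPM. Cdkn1a fell by 1.34 ± 0.38 on the log2 scale (edgeR adjusted p = 0.00609) on 11 UMIs in the memory precursor and naive-gene clusters, and was not called by DESeq2 (adjusted p = 0.0875) or without WT2 (edgeR adjusted p = 0.0604). Cdkn2d rose by 0.35 ± 0.08 (edgeR adjusted p = 0.000265) and was not called without WT2 (0.21, edgeR adjusted p = 0.099), whereas Cdkn2c, at −0.42 ± 0.22 (edgeR adjusted p = 0.181), was called lower without it (−0.79, edgeR adjusted p = 0.0379).

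These clusters also carried CD4 T cell transcripts. The 3 genes of that list summed to 29.2, 26.4, 52.4 and 41.2 CPM in WT1, WT2, KO1 and KO2, with Cd4 the most abundant, against 2.06 to 3.16 CPM in the other non-cycling cells. With cells that held a UMI of Cd4, Cd40lg or Foxp3 removed, Myc (1.69, edgeR adjusted p = 3.49e-17) and Ccnd3 (−0.85, edgeR adjusted p = 2.37e-34) differed as much as before.

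**Figure D4:**
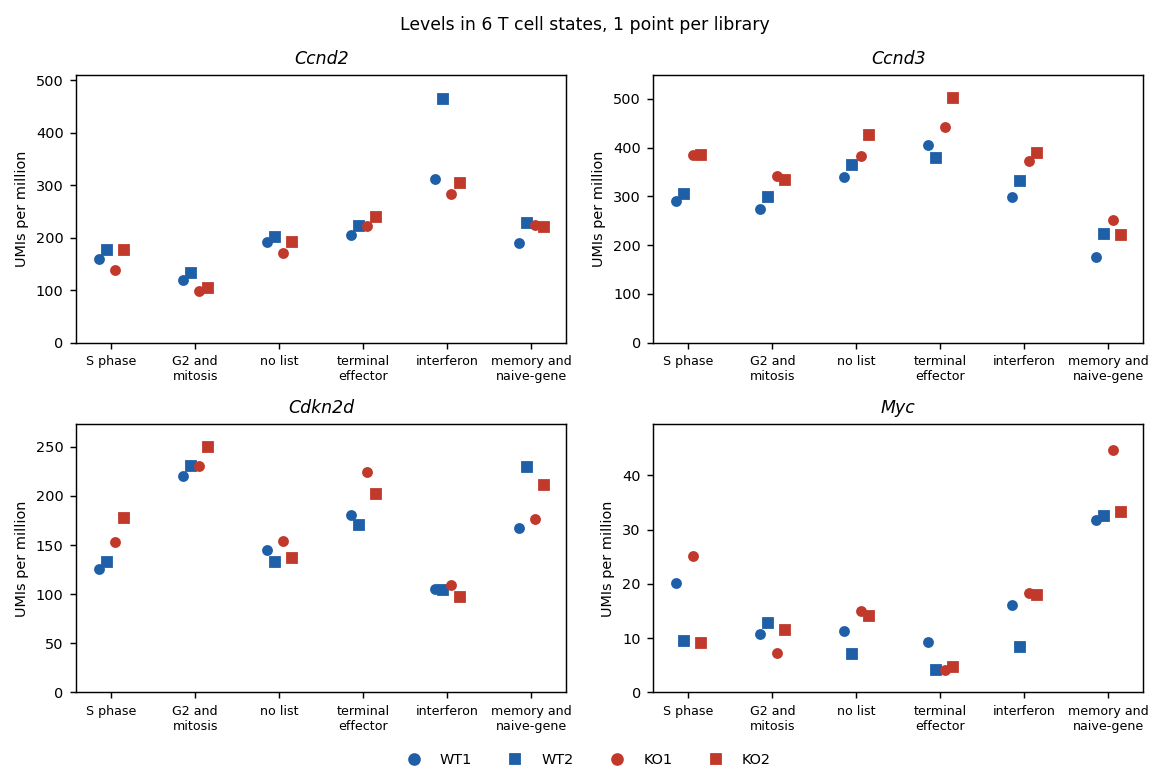
Levels of Ccnd2, Ccnd3, Cdkn2d and Myc (CPM, axis from 0) in 6 T cell states, 1 point per library, blue for WT and red for KO, circles for chimera 1 and squares for chimera 2. Myc is highest and Ccnd3 lowest in the memory precursor and naive-gene clusters, Ccnd2 is highest in the interferon-stimulated clusters, and Cdkn2d is highest in G2 and mitosis.

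Ccnd2 differed among resting states in another place. In the interferon-stimulated clusters, named from a list with Ifit1, Isg15 and Rsad2, it stood at 311 and 464 CPM in WT1 and WT2 and at 283 and 304 CPM in KO1 and KO2, above each of its values in the other 5 T cell states, which ran from 98.5 to 239 CPM. The range of Ccnd2 in the memory precursor and naive-gene clusters (216 ± 17.7 CPM, SD, n = 4) overlapped those in terminal effectors (222 ± 14.1 CPM) and in no-list clusters (189 ± 12.7 CPM), and the latter 2 were just apart, at 204 CPM and above against 201 CPM and below. Cdkn2d was lowest in the interferon-stimulated clusters, at 105.5, 104, 109.8 and 97.0 CPM. These state levels were not tested. Outside the T cells, Cdkn1a was at 59.5 to 121 CPM in the myeloid-like clusters, above its 15.6 to 22.6 CPM in cycling T cells.

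The comparison of genotypes asked whether loss of Bcl3, an atypical IκB protein that works with NF-κB p50 and p52 in the nucleus, went with other levels of these genes. Bcl3 itself was at 33.2 and 108 CPM in WT1 and WT2 and at 27.6 and 86.6 CPM in KO1 and KO2. Its 3′ tags followed the chimera more than the genotype (log2 difference KO against WT −0.33 ± 0.58, edgeR adjusted p = 0.837). Which part of Bcl3 the mutant lacks is not given in the sources used here, so these tags do not check the labels.

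No member was called between KO and WT by edgeR in all cells, in cycling or in non-cycling T cells, where 0.363%, 0.411% and 0.243% of genes were called. At an unadjusted p under 0.05 there were 1, 2 and 1 members, against 15.6%, 8.69% and 12.9% of all genes, and DESeq2 also called 0 in each. Since both genotypes came from each chimera, the fit was repeated with the chimera as a block, where 9.65%, 4.95% and 6.36% of genes were called. There Ccnd3, higher in KO, was the 1 member called in each of the 3 fits.

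Over all cells, T cells and others together, Ccnd3 stood at 309 and 333 CPM in WT1 and WT2 and at 376 and 402 CPM in KO1 and KO2. Both KO libraries exceeded both WT libraries, with a log2 difference of 0.26 ± 0.09 (edgeR adjusted p = 0.255), and 0.0248 with the chimera as a block. In cycling T cells the difference was 0.29 ± 0.11 (edgeR adjusted p = 0.497, and 0.0288 with the block), and in non-cycling T cells 0.25 ± 0.09 (edgeR adjusted p = 0.349, and 0.0351 with the block). Within the chimeras the log2 ratio of KO to WT was 0.28 and 0.27 over all cells. Over 6 T cell states in 2 chimeras Ccnd3 was higher in KO in 11 of 12 pairs, the exception being the memory precursor and naive-gene clusters of chimera 2 (220.4 CPM in KO2, 222.5 in WT2). Cdkn2d and Rb1 were higher in KO in 10 of 12 pairs, Cdk6, Cdkn1a, Cdkn2c and Myc in 8, Cdk4 in 7, Cdkn1b in 6 and Ccnd2 in 4. Of 5027 genes with a mean of at least 20 CPM over these states, 9.39% were higher in KO in at least 11 pairs, 16.7% in at least 10, 35.7% in at least 8 and 33.2% in at most 4. Cdkn1a, Cdkn1b, Rb1 and Myc, at means of 10.7, 16.2, 11.1 and 15.8 CPM, were below this cut, so these shares do not cover genes of their level. The 12 pairs come from 4 libraries and are not independent. Ccnd3 in barcodes of at most 50 UMIs, which hold free RNA, was also higher in the KO libraries, at 433 and 398 CPM against 308 and 272 CPM, and in the B cell-like clusters it was higher in KO1 (156 against 137 CPM) and lower in KO2 (134 against 167 CPM). In the myeloid-like clusters it was higher in both KO libraries, at 309 and 317 CPM in KO1 and KO2 against 225 and 268 CPM in WT1 and WT2, a difference that was not tested. The part of free RNA in the difference was not tested.

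**Figure D5:**
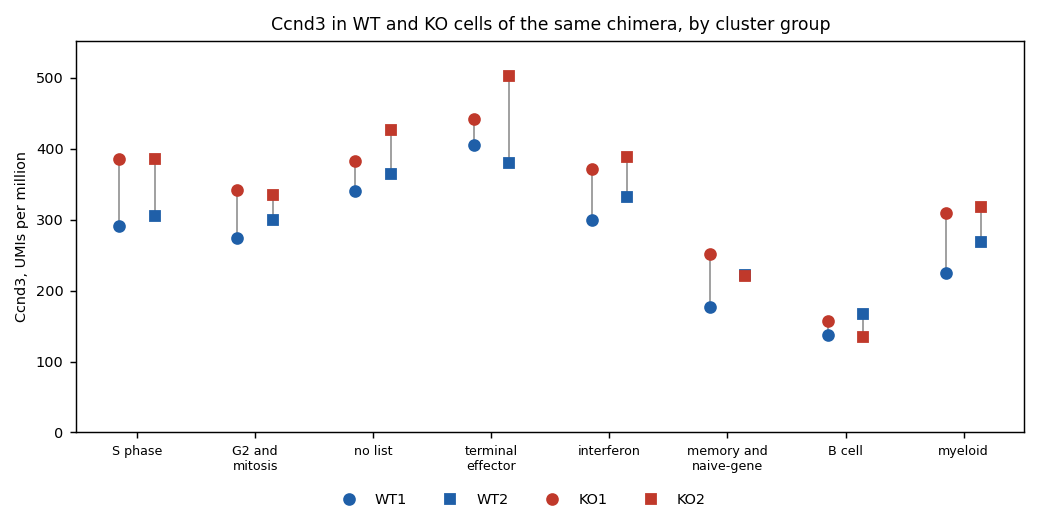
Ccnd3 level (CPM, axis from 0) by cluster group; grey lines join WT (blue) and KO (red) libraries of the same chimera, circles for chimera 1 and squares for chimera 2. The KO point is above the WT point in 11 of the 12 pairs of T cell states.

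Among the other members, Cdkn2c in cycling T cells was at 43.6 and 53.8 CPM in WT1 and WT2 and at 61.0 and 68.4 CPM in KO1 and KO2 (0.39 ± 0.14, edgeR adjusted p = 0.457). Leaving out 1 library gave log2 differences of 0.259 to 0.506 for Cdkn2c. Cdkn2d was at 161 and 174 CPM in WT and 187 and 213.5 CPM in KO cycling cells (0.23 ± 0.12, edgeR adjusted p = 0.622). Ccnd2, by contrast, was at 143 and 159 CPM in WT and 121 and 139 CPM in KO cycling cells, the only member for which both KO libraries lay below both WT libraries there (−0.25 ± 0.12, edgeR adjusted p = 0.617). None of these 3 passed the test with or without the block. The makeup of the libraries also differed. Terminal effectors were 10.6% and 11% of cells in WT1 and WT2 and 22.7% and 17.4% in KO1 and KO2. The memory precursor and naive-gene clusters were 6.46% and 5.57% against 2.39% and 3.08%. At resolution 0.4 they were 6.48% and 5.36% against 1.92% and 3.03%, and at 1.2 6.44% and 5.62% against 3.84% and 3.00%. The no-list cluster of KO1 led by Tcf7, Il7r and Bcl2 is not in the share given first for KO1. The 8 terminal effector markers summed to 2688 and 3309 CPM in non-cycling cells of WT1 and WT2 and to 4242 and 4312 CPM in KO1 and KO2. The most abundant of them was Klf2 in WT1 and WT2 (1244 and 1454 CPM) and Gzma in KO1 and KO2 (2008 and 2055 CPM). The part of these differences in makeup in the genotype values over all cells and non-cycling cells was not tested. The pairs within states are those given above. Both KO libraries lay above both WT libraries for 7 members over all cells, where this held for 25.7% of genes, for 4 in cycling T cells (23.4%) and for 7 in non-cycling T cells (24.1%). Both lay below for 0, 1 and 0 members, against 18.8%, 15.6% and 17.8% of genes.

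Whether the genotype difference itself changed between the states was tested as an interaction. No member was called by edgeR, where 0.0464% of genes (5 genes) were called. Cdk4 alone had an unadjusted p under 0.05 (log2 interaction −0.20 ± 0.09, edgeR adjusted p = 0.961), and DESeq2 called 0 members. The interaction of Ccnd3 was 0.06 ± 0.07 (edgeR adjusted p = 0.972).

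The surrounding pathway genes give the setting for these values. Of 98 genes in 6 lists, 92 could be tested between cycling and non-cycling T cells, and edgeR called 44 higher and 18 lower. The lower calls were the less stable, at 43 higher and 9 lower with DESeq2, 40 and 9 without library as a term, and 37 and 6 at 1000 UMIs per cell. The share of all genes called lower was 15.4%, 13.4% and 12.9% under these settings. The counts of each list are to be read against the 23.6% of all genes called higher and the 25.5% called lower in this comparison. Among cyclins, CDKs and their activators 13 of 16 tested genes rose and 1 fell. Their median log2 difference was 2.11 against −0.03 for all genes tested. Ccna2 (5.01) and Ccnb2 (4.47), the S phase and mitotic cyclins, Cdk1 (4.10) and Cks1b (3.87) had the lowest adjusted p. Cycling clusters were named from S phase and mitosis genes, so a rise of genes of the same phases is no independent result. Among pocket proteins, E2F and DP factors 12 of 17 rose and 2 fell (median 0.57), led by the E2F repressors E2f8 (4.73) and E2f7 (4.29), the activator E2f1 (3.25) and the RB relative Rbl1 (1.36).

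Of 10 other CDK inhibitors, antiproliferative genes and turnover factors, 3 rose and 4 fell (median 0.09), which is near the shares over all genes. The antiproliferative genes Btg1 (−1.05), Btg2 (−0.83) and Tob1 (−0.52) fell with Cdkn1b, whereas the INK4 gene Cdkn2a (1.74) rose with Cdkn2c. Of 16 p53 and p53 target genes 7 fell and 0 rose (median −0.11), among them Bbc3 (−1.06), Zmat3 (−0.91), Trp53inp1 (−0.53) and Sesn2 (−0.84). This count depended on the setting, with 3 lower by DESeq2 and 1 lower at 1000 UMIs per cell. Without scaling factors 4 were higher and 6 lower, where 27.5% and 20.6% of all genes were called higher and lower. Cdkn1a, also a p53 target, rose in the same cells.

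In the MAX network 3 of 13 genes rose and 4 fell (median −0.14), also near the shares over all genes, with the repressor gene Mxd3 (4.76) far up, the repressor gene Mxd4 (−0.91) down, and the helicase genes Ruvbl2 (0.79) and Ruvbl1 (0.50) up. Of 20 nucleolar and growth genes known to respond to MYC, 13 rose and 0 fell (median 0.41), among them Pa2g4 (0.80), Nop58 (0.81), Ldha (0.43) and Odc1 (0.69), while Myc itself did not pass. In the memory precursor and naive-gene clusters 15 of the 20 rose and 0 fell (median 0.53 against 0.00 for all genes tested, of which 9.57% were called higher). In S phase 15 of 19 rose against G2 and mitosis (median 0.62, with 14.3% of all genes called higher). DESeq2 called 13 of this list between cycling and non-cycling cells, 10 in the memory precursor and naive-gene clusters and 10 in S phase, where it called 18.5%, 6.22% and 5.61% of all genes higher. At 1000 UMIs per cell edgeR called 9 of 20, 6 of 20 and 6 of 13, against 17.0%, 5.40% and 8.31% of all genes.

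Between genotypes no pathway gene was called by edgeR or DESeq2 in all cells, in cycling or in non-cycling T cells, where 25, 11 and 15 genes had an unadjusted p under 0.05 by edgeR, against those shares of 15.6%, 8.69% and 12.9% of all genes. Some fits with 1 library left out called pathway genes higher in KO, but they keep 1 library in a genotype and are not read here. Without a filter on low counts edgeR called 1 pathway gene higher in KO in cycling cells, where 1.75% of all genes were called. At a clustering resolution of 0.4 the genotype difference between cycling and non-cycling cells gave 1 higher and 1 lower call. There 0.252% of all genes were called. With the chimera as a block 5 were called higher and 12 lower in KO over all cells, 4 and 4 in cycling, and 2 and 2 in non-cycling T cells, out of 95, 89 and 90 tested, where 9.65%, 4.95% and 6.36% of all genes were called. The lowest adjusted p in non-cycling cells without the block were those of Tob1 (0.39, edgeR adjusted p = 0.26) and E2f8 (1.37, edgeR adjusted p = 0.266) in their lists. Next came Cdc25b (0.41, edgeR adjusted p = 0.274), a CDK-activating phosphatase, Trp53inp1 (0.50, edgeR adjusted p = 0.282) and Mlxip (0.61, edgeR adjusted p = 0.30).

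Across the 24 sums of 6 T cell states and 4 libraries, other genes followed the members closely. Nearest by Pearson r of log2(CPM + 1), among 5027 genes of at least 20 CPM on average and outside the lists, were Gins4 (0.94), Siva1 and Dnajc9 for Cdk4, where Gins4 encodes a replication factor. For Cdkn2c they were Cit (0.95), Prc1 and Hmgb2, the first 2 being cytokinesis genes, and for Cdkn1a they were Dnmt1 (0.91), Sumo2 and Tmem109. For Ccnd3 they were Anxa1 (0.93), Ppp3ca and Zyx, and for Ccnd2 Cnp (0.88), Samhd1 and Chmp4b. For Myc they were Mrps6 (0.87), Rpl12 and Rgs10, the first 2 being ribosomal protein genes, and for Rb1 they were Kpnb1 (0.87), Far1 and H3f3a. Likeness was weaker for Cdkn1b (Arhgap15, 0.81; Pdcd4 and Pik3ip1), Cdkn2d (Cdk2ap2, 0.78; Tnfaip8l1 and Mtmr14) and Cdk6 (Mt2, 0.78; Plekhj1 and Mt1). The sums share libraries and depth, so r is a description.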

How the data were processed

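The authors aligned and counted the reads of 10x 3′ libraries with Cell Ranger 2.2.0 (mm10, after bcl2fastq 2.17, per the labels) and deposited the unfiltered UMI counts of each library. All 4 libraries were used. The cell filter was 500 genes or more and no more than 10% of UMIs from mitochondrial genes. Seurat 5.3.0 (2000 variable genes without the members and pathway genes, 15 components, 20 neighbours, resolution 0.8) gave clusters per library, named by at least 3 markers with clusters under 1% left out; doublets were not called. UMIs were summed per library and state and compared by quasi-likelihood in edgeR 4.0.16 after TMM scaling and filterByExpr, with Benjamini-Hochberg adjustment over all genes tested and a threshold of 0.05; library was a term between states. DESeq2 1.42.0 and the other alternatives are given with the limits. CPM are UMIs per 1000000 of a sum. The fits were tested on simulated data, and the outcome is not used for any result here.

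All 10 genes are named, with up to 4 genes per pathway list by lowest adjusted p between cycling and non-cycling cells, up to 2 between genotypes, and the 3 nearest by r. The members and lists were chosen with earlier results of these data known. The paper states that WT and KO cells were sorted from the same animal. Same-numbered libraries were taken as pairs from the numbers in their titles. The WT1-WT2 and KO1-KO2 differences correlated at r = 0.169 over genes in all cells, 0.295 in non-cycling and 0.188 in cycling cells. The main fits between KO and WT did not use this pairing, and the fits with the chimera as a block did. With 2 libraries per genotype, p-values of the main fits between KO and WT measure the spread between these libraries. Where library or chimera was a term, p-values measure the spread of the differences within libraries or chimeras. The fits with the chimera as a block rest on 2 chimeras.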

Additional observations from a re-analysis of the deposited data

Results flagged for a closer look

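Some values lay outside the comparisons or moved in opposite ways between groups. In barcodes of at most 50 UMIs, which hold free RNA and enter no comparison, Cdkn1b stood at 25.3 and 34.2 CPM in WT1 and WT2 and at 27.1 and 33.3 CPM in KO1 and KO2, above the 13.5 to 18.0 CPM of the cells. Cdkn2d was there too, at 159.9, 144.75, 186.5 and 162 CPM in WT1, WT2, KO1 and KO2 against 149, 144.71, 169 and 156.5 CPM in the cells. The other members were not above their cell level in each of the 4 libraries.

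The ratio of Myc between S phase and G2 and mitosis cells went one way in chimera 1 (mean log2 ratio 1.36) and the other way in both libraries of chimera 2, as the values per library above show; the difference between the chimeras was not tested. Cdkn1b was lower in KO than WT in cycling T cells of both chimeras (mean log2 ratio −0.063) and higher in non-cycling T cells of both (log2 ratios 0.38 and 0.10). The single states did not share these directions. Chimeras 1 and 2 gave 0.27 and −0.77 in S phase and −0.66 and 0.57 in G2 and mitosis. They gave −0.25 and −0.31 in interferon-stimulated clusters and 0.48 and 0.20 in no-list clusters. Memory precursor and naive-gene clusters and terminal effectors were split between the chimeras. The interaction of Cdkn1b was −0.30 ± 0.23 with an edgeR adjusted p of 0.961.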

How the results depend on the processing

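Of the 20 calls of members between states, 263 of 293 alternative values kept the direction and the call, 30 lost the call and 0 changed direction. For 43 other member values, never past the threshold, 60 of 636 alternative values had the other sign. The number of members called between KO and WT went from 0 to 1 with the replicate block (paired by chimera) in all, cycling and non-cycling cells. Between cycling and non-cycling cells it went from 8 to 4 without cells holding any UMI of defining B, plasma, myeloid or erythroid markers, which left 12 to 264 cycling cells per library, and to 6 without library as a block. Between S phase and G2 and mitosis it went from 8 to 5 with DESeq2, 4 at 1000 UMIs per cell (6 members tested) and 2 without those cells (4 members tested). In the memory precursor and naive-gene clusters it went from 4 to 2 at 1000 UMIs per cell. The settings without scaling factors and without cells of other markers were chosen after the data were seen.

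Over all genes, the calls between KO and WT were most variable: 42 in all cells against 203 with DESeq2, 1116 with the block, 80 without scaling factors, 100 without those cells, and 40 to 228 leaving out 1 library (228 without WT1, 176 without KO1). In cycling cells 38 became 249 without a filter, 457 with the block, 20 by a per-cell rule for cycling, 13 without those cells and 8 to 196 leaving out 1 library (18 without WT1, 8 without WT2, 196 without KO1, 114 without KO2). In non-cycling cells 26 became 113 with DESeq2, 681 with the block, 45 without scaling factors, 41 at 1000 UMIs per cell, 53 by the per-cell rule, 17 at resolution 1.2, 86 without those cells and 30 to 390 leaving out 1 library (390 without WT1, 89 without WT2, 157 without KO1). For cycling against non-cycling cells 5282 became 3116 without the block, 2713 at 1000 UMIs per cell and 1218 without those cells. For S phase 2240 became 920 with DESeq2, 720 at 1000 UMIs and 199 without those cells. For the memory precursor and naive-gene clusters 2218 became 1303 with DESeq2, 1069 at 1000 UMIs, 419 without those cells and 1472 without WT1. The interaction had 5 calls against 1 to 27 over the alternatives. Leaving out 1 library gave 6 to 9 members called for S phase, 3 to 4 for the memory precursor and naive-gene clusters, and the main number elsewhere. Among the pathway genes, the higher and lower calls went from 34 and 15 to 19 and 10 with DESeq2 and 11 and 7 at 1000 UMIs in S phase, and from 23 and 7 to 13 and 3 and to 8 and 0 in the memory precursor and naive-gene clusters. Without those cells they were 21 and 6 between cycling and non-cycling cells, 5 and 5 in S phase and 3 and 0 in the memory precursor and naive-gene clusters. Depth limits Cdkn1a, Cdkn1b, Rb1 and Myc, which had 174 to 286 UMIs each in all cycling cells.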
